A study of Mus musculus with 6 samples.

Results

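The mitosis genes are 41 genes that encode kinases of mitotic entry, spindle checkpoint proteins, kinetochore proteins, kinesins, condensin subunits and proteins of cytokinesis. They were taken as a named list, and each gene was read from the probe set, the group of array probes for 1 transcript, that carried its symbol alone and was brightest on average. In this way 40 of the 41 genes were measured among 18194 genes in all, and Ccnb1 was not analysed here because no probe set carried its symbol alone. The RNA came from mouse carotid arteries 14 days after a wire was drawn through them, which strips the endothelium and starts a repair response in which smooth muscle cells divide. Both groups had this injury, and they differed in genotype: wild type (WT) and a global knockout of the transcription factor IRF4 (IRF4 KO), with 3 arrays each. Each array held RNA pooled from 3 to 5 vessels, so single animals were not measured. The labels give no strain, age or sex, do not name the exons of Irf4 that were removed, and hold no uninjured artery.

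Mitosis genes are transcribed late in the cell cycle, from late S phase into mitosis, and are nearly silent in resting cells. Cyclin A2 and the B-type cyclins switch on the kinase CDK1, which starts mitosis. The spindle checkpoint then holds the anaphase promoting complex in check until every kinetochore is attached to the spindle, after which cyclin B is destroyed and the cell divides. In an artery most smooth muscle cells rest, and these transcripts are known to appear when cells of the wall divide after injury. Each array measured RNA of whole vessels, so fewer dividing cells and less RNA per dividing cell cannot be told apart.

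A pair of arrays, WT 3 and IRF4 KO 1, differed from the rest in ways that the genotype labels do not cover. Poly-A spike-in controls detect exogenous RNAs that can be mixed into a sample, and whether each sample received them was not checked here. In the pair they averaged 4.93 and 5.14 on the log2 scale, against 7.35 to 9.26 in the other 4. The 18S ribosomal RNA controls averaged 4.70 and 4.81 in the pair, against 7.15 to 7.80. The comparison of genotypes is therefore also given within each set of arrays. Another control, the Gapdh 3′ minus 5′ signal, did not follow this pair. It was 3.35 in WT 1 and 3.36 in WT 3, against 1.59 in WT 2 and 1.52 to 2.24 in IRF4 KO. The level of Irf4 lay between 3.38 and 3.90 in WT and between 3.27 and 3.75 in IRF4 KO, which is dim and overlapping, so it gave no check of the genotype labels. Smooth muscle RNA, which the tissue label calls for, was found on each array. There 7 of 7 markers lay above the median gene level of 4.89, and Myh11, the smooth muscle myosin, lay between 11.44 and 12.30. In WT 3 and IRF4 KO 1 the cartilage collagen gene Col2a1 reached the same range, at 12.07 and 12.16, against 3.75 to 5.15 elsewhere. The source of its RNA was not tested.

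Across the 40 mitosis genes no difference between IRF4 KO and WT passed the test, and most of the variation lay between arrays of 1 genotype. With limma, 0 of 40 had a Benjamini-Hochberg adjusted p under 0.05, as did 0% of all 18194 genes, and every mitosis gene had an adjusted p of 0.999 (unadjusted, 0.146 to 0.994). At an unadjusted p under 0.05 there were 0 mitosis genes, against 1.49% of all genes. The differences, IRF4 KO minus WT, ran from -0.31 to 0.41 on the log2 scale, with a median of 0.07 against -0.0015 for all genes. IRF4 KO had the higher mean in 25 of the 40 and the lower mean in 15, while 49.7% of all genes were higher. The median gene had a 95% interval of 0.95 log2 units to either side of its difference, so differences of that size could not be told from 0 for a typical member.

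**Figure D1:**
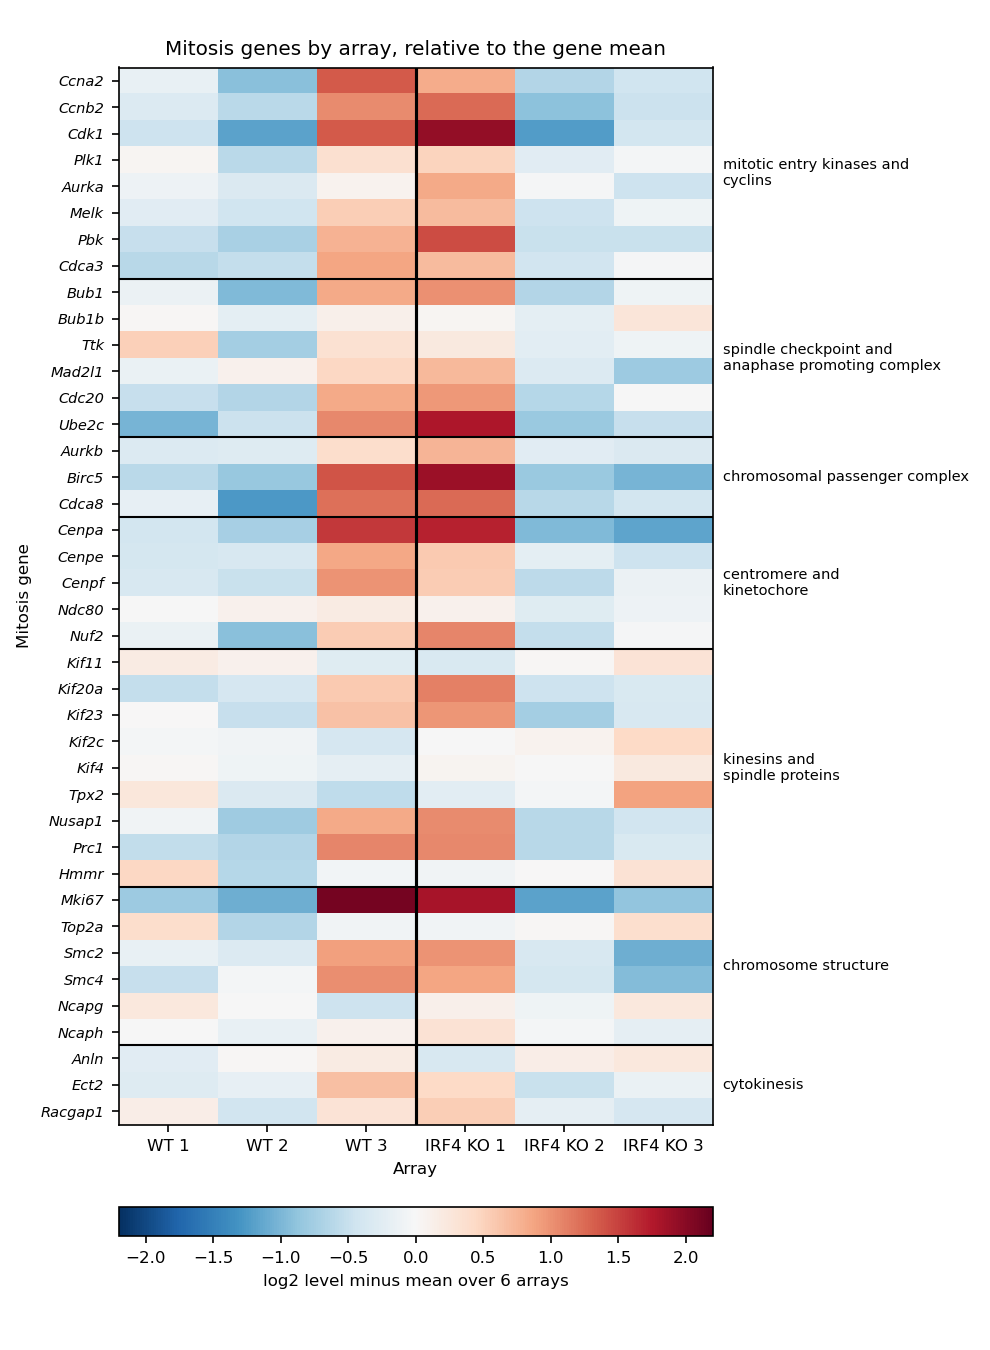
Heat map of the 40 measured mitosis genes (one per line, ordered by role) on the 6 arrays (columns), coloured by the log2 level minus the gene's mean over the 6 arrays. Red marks a level above the gene's mean. In 29 of the genes both WT 3 and IRF4 KO 1 lie above the other 4 arrays, while the kinesin and spindle group holds several genes with little difference between arrays.

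The variation followed WT 3 and IRF4 KO 1. In 29 of the 40 genes both of these arrays lay above all other 4 arrays, an order found in 17.4% of all genes. In 1 gene, Kif11, both lay below them, against 19.8% of all genes. The mean of the pair exceeded the mean of the other 4 by a median of 1.11 log2 units over the 40 genes, against -0.03 over all genes. Among the 29 genes the ratio ran from 1.24-fold to 7.70-fold, with a median of 2.54-fold. The pair holds 1 array of each genotype, and IRF4 KO 1 lay above WT 3 in 21 of the 29 genes. The labels give no group for these arrays, so no test was made of this pattern.

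Mki67, whose product Ki-67 coats mitotic chromosomes and is the usual marker of cycling cells, had the widest range. Its log2 level was 4.28, 3.99 and 7.18 in WT 1 to 3 and 6.89, 3.89 and 4.20 in IRF4 KO 1 to 3. WT 3 and IRF4 KO 1 were high and the other 4 arrays lay between 3.89 and 4.28, so the genotypes overlapped. The WT mean was 5.15 ± 1.76 and that of IRF4 KO 4.99 ± 1.65 (SD, n = 3), a difference of -0.16 with a 95% interval from -2.42 to 2.10 (limma adjusted p = 0.999). Between the pair and the other 4 arrays the level differed by 2.94, or 7.70-fold.

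Mitosis genes are known to share promoter elements, among them the cell cycle homology region (CHR) with the core TTTGAA or TTTAAA, bound by the MuvB complexes, and CCAAT boxes, bound by NF-Y. Because most of the members moved together across the arrays, their promoters were searched for these letters. RefSeq promoter windows of GRCm38.p6, from 250 bases before to 50 bases after a transcript start, were at hand for 34 of the 40 genes. On either strand TTTGAA was in the window of 26 of the 34 genes (76.5%), against 17.9% of 32851 windows of all genes. TTTAAA, which reads the same on both strands, was in 8 of the 34 (23.5%), against 13.2%. CCAAT was in 25 of the 34 (73.5%), against 37.4%, and 24 of the 34 (70.6%) held CCAAT together with TTTGAA or TTTAAA, against 10.7%. A match is a run of letters and not a measured site, and the windows overlap where a gene has more than 1 start.

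The 250 bases before the start of 3 genes are printed 5′ to 3′ on the strand of the gene, in lower case, with TTTGAA and CCAAT on either strand in capitals (TTCAAA and ATTGG are the same motifs on the other strand). They belong to the members with the brightest probe sets among those with a CHR-like match. Mki67 lies on chr7:135716380-135716629, minus strand, and shows 3 CCAAT matches upstream of 2 TTTGAA matches, at positions -116 and -98 from the start.
Mki67: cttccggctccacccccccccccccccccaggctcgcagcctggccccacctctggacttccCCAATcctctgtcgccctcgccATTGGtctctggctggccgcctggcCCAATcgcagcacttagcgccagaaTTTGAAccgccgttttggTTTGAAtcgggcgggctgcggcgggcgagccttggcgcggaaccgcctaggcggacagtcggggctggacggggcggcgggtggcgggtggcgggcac
Cdc20, the activator of the anaphase promoting complex, lies on chr4:118437344-118437593, minus strand, with CCAAT at -53, TTTGAA at -18 and a second CCAAT at -8.
Cdc20: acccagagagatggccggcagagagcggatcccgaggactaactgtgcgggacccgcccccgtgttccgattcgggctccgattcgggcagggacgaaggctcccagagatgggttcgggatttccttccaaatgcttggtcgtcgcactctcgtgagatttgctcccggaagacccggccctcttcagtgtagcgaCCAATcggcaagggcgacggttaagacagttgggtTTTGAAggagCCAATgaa
Smc2, a core subunit of condensin, lies on chr4:52438971-52439220, plus strand, with TTTGAA on the other strand at -145 and CCAAT at -119.
Smc2: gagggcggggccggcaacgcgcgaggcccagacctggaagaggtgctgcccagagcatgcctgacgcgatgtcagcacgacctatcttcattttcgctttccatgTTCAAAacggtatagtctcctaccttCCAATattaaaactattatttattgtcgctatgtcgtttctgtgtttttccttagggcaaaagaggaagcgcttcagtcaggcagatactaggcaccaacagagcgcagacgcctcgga
In Anln, the 2 TTTGAA matches lay after the start, at 22 and 29, and the window held no CCAAT. On the brightest probe sets, the letters did not divide the genes by their pattern across the arrays. WT 3 and IRF4 KO 1 were highest in 17 of the 24 genes with CCAAT together with TTTGAA or TTTAAA, and in 5 of the 5 genes whose window held none of these letters (Mad2l1, Nusap1, Ncaph, Nuf2 and Melk). The 7 genes with both kinds of match outside the pattern included Top2a, Kif11 and Hmmr. Of these 7, Top2a, Kif11, Bub1b and Ncapg showed the pattern on another probe set. Some genes within the pattern left it on another probe set, as given below.

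The kinases and cyclins of mitotic entry moved with this pattern in 8 of 8 measured genes. Ccna2, which encodes the cyclin of S phase and mitotic entry, was at 5.14, 4.37 and 6.64 in WT and at 6.11, 4.65 and 4.86 in IRF4 KO. It was the brightest of the group, WT 3 was its highest array, and the genotypes overlapped (difference -0.18, 95% interval -1.53 to 1.17). Cdk1, the kinase that drives entry into mitosis, was at 4.37, 3.64 and 6.17 in WT and at 6.76, 3.59 and 4.43 in IRF4 KO. WT 3 and IRF4 KO 1 stood 5.50-fold above the other 4 arrays for Cdk1, and IRF4 KO 1 was the highest. Ccnb2, the partner cyclin, was 3.27-fold higher in the pair and Pbk, a mitotic kinase, 3.12-fold. The polo kinase gene Plk1 and the spindle pole kinase gene Aurka had smaller ratios, 1.55-fold and 1.61-fold, and levels between 2.82 and 4.61. The genotype differences of the 8 genes ran from -0.18 to 0.30, and 0 of 8 passed.

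In the spindle checkpoint and anaphase promoting complex group, 4 of 6 genes were highest in WT 3 and IRF4 KO 1. Cdc20 was at 4.69, 4.55 and 6.04 in WT and at 6.15, 4.58 and 5.19 in IRF4 KO. Its pair of high arrays was 2.54-fold above the others, and the genotype means of 5.09 ± 0.82 and 5.31 ± 0.79 differed by less than either SD. Ube2c, the ubiquitin-conjugating enzyme of the same complex, was at 2.49, 3.04 and 4.58 in WT and at 5.29, 2.69 and 3.01 in IRF4 KO, 4.38-fold higher in the pair. Mad2l1, which encodes the checkpoint inhibitor MAD2, was at 4.52, 4.76 and 5.12 in WT and at 5.38, 4.37 and 3.87 in IRF4 KO. IRF4 KO 1 was its highest array and IRF4 KO 3 its lowest, so the IRF4 KO arrays enclosed all WT arrays. The checkpoint kinase genes Bub1b and Ttk differed by 0.11 and 0.41 between the pair and the other 4, and the pair did not exceed all of the others.

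The chromosomal passenger complex, which corrects wrong attachments of chromosomes, had all 3 measured genes in the pattern. Birc5, its survivin subunit, was at 2.66, 2.42 and 4.63 in WT and at 5.13, 2.43 and 2.22 in IRF4 KO. The pair was 5.46-fold above the others, and the genotype difference was 0.02 with a 95% interval from -1.89 to 1.94. Cdca8, which encodes borealin, was at 3.63, 2.55 and 5.02 in WT and at 5.05, 3.19 and 3.39 in IRF4 KO, with WT 2 lowest. Aurkb, its kinase, was 1.81-fold higher in the pair, with all levels between 3.06 and 4.14.

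At the centromere and kinetochore, 4 of 5 genes followed the pattern. Cenpa, the histone variant that marks centromeres, was at 3.52, 3.20 and 5.49 in WT and at 5.62, 2.95 and 2.77 in IRF4 KO, 5.44-fold higher in the pair. Cenpf, a kinetochore protein gene, was at 4.15, 4.01 and 5.50 in WT and at 5.06, 3.94 and 4.39 in IRF4 KO. In both genes each genotype held 1 high and 2 low arrays. Cenpe and Nuf2, which encode a kinetochore motor and a microtubule anchor, were 2.09-fold and 2.33-fold higher in the pair. Ndc80, the partner of NUF2, was at 2.83, 2.94 and 3.02 in WT and at 2.94, 2.57 and 2.72 in IRF4 KO, within 0.44 units over the 6 arrays. Its difference of -0.18 (SE 0.19, limma adjusted p = 0.999) had the smallest unadjusted p (0.348) among the mitosis genes lower in IRF4 KO.

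The kinesins and spindle proteins were divided, with 4 of 9 genes highest in WT 3 and IRF4 KO 1. Prc1, which bundles the microtubules of the central spindle, was at 3.91, 3.82 and 5.53 in WT and at 5.51, 3.85 and 4.12 in IRF4 KO. Nusap1, Kif20a and Kif23, of spindle assembly and cytokinesis, were 2.67-fold, 2.40-fold and 2.32-fold higher in the pair. Tpx2, an activator of the Aurora A kinase, was the brightest of the group at 5.63, 5.06 and 4.83 in WT and at 5.15, 5.34 and 6.26 in IRF4 KO. WT 3 was its lowest array and IRF4 KO 3 its highest, and the genotypes overlapped (difference 0.41, 95% interval -0.36 to 1.18). Kif4, a chromosome-bound kinesin, was at 3.24, 3.12 and 3.03 in WT and at 3.29, 3.21 and 3.44 in IRF4 KO. It had the narrowest range of all members, and the genotypes overlapped (difference 0.18, 95% interval -0.23 to 0.59).

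Kif2c encodes a kinesin that shortens microtubules at kinetochores. On the brightest probe sets it was the 1 mitosis gene of 40 with no overlap between the genotypes. It was at 4.91, 4.87 and 4.58 in WT and at 4.94, 5.03 and 5.38 in IRF4 KO. All IRF4 KO arrays were higher, but the gap between WT 1 and IRF4 KO 1 was small beside the SDs of 0.18 and 0.23. The difference was 0.33 (SE 0.20, limma adjusted p = 0.999), and 2.37% of all genes were higher in IRF4 KO without overlap. On its other probe sets Kif2c differed by 0.47, -0.02 and 0.12, and the first of these also had no overlap. Dimmer probe sets of Tpx2 (difference 0.53) and Hmmr (0.19) were higher in IRF4 KO without overlap as well. Lower levels in IRF4 KO without overlap were found in 0 of 40 mitosis genes on the brightest probe sets, and in 3.31% of all genes. A dimmer probe set of Cenpa was lower without overlap, at 3.10, 2.56 and 2.46 in WT and at 2.27, 2.43 and 2.36 in IRF4 KO.

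Among the genes of chromosome structure, 4 of 6 followed the pattern. Smc4, the other core subunit of condensin, was the brightest at 6.73, 7.19 and 8.25 in WT and at 8.11, 6.85 and 6.29 in IRF4 KO. WT 3 and IRF4 KO 1 were 2.67-fold above the others, and the genotype difference of -0.31 had a 95% interval from -1.49 to 0.88. Smc2 was at 5.07, 4.94 and 6.15 in WT and at 6.23, 4.90 and 4.16 in IRF4 KO, a ratio of 2.68-fold for the pair. Ncaph, a regulatory condensin subunit, was 1.24-fold higher in the pair, the smallest ratio among the 29 genes. Top2a, the topoisomerase that untangles sister chromosomes, was at 4.83, 3.80 and 4.36 in WT and at 4.36, 4.46 and 4.80 in IRF4 KO, with WT 2 lowest and WT 3 and IRF4 KO 1 in the middle of the range.

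Of the cytokinesis genes, 2 of 3 followed the pattern. Ect2 and Racgap1, which control the GTPase of the contractile ring, were 1.76-fold and 1.55-fold higher in the pair. Anln, which encodes the ring scaffold anillin, was at 8.21, 8.49 and 8.63 in WT and at 8.10, 8.61 and 8.70 in IRF4 KO. It was the brightest of all members, varied by 0.60 units over the 6 arrays, and its genotype means of 8.44 ± 0.21 and 8.47 ± 0.32 differed by 0.02. WT 1 and IRF4 KO 1 were its lowest arrays.

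The choice of probe set decided whether some genes followed the pattern. The 40 genes had 87 probe sets, and 26 genes had more than 1. Of the 11 genes not highest in WT 3 and IRF4 KO 1 on the brightest probe set, 6 were so on another one, namely Bub1b, Kif11, Kif2c, Tpx2, Top2a and Ncapg. On the second probe set of Top2a the levels were 3.49, 3.12 and 5.71 in WT and 6.17, 3.92 and 3.72 in IRF4 KO, while the brightest probe set varied from 3.80 to 4.83. Kif11, the kinesin that separates spindle poles, was at 2.22, 2.01 and 3.58 in WT and at 3.71, 2.09 and 2.34 in IRF4 KO on its dimmest probe set. Its brightest one had the reverse order, with WT 3 and IRF4 KO 1 lowest at 3.52 and 3.45. The reverse was also found. Of the 29 genes that followed the pattern, 17 had other probe sets, which all followed it in 7 genes and did not all follow it in 10. Those 10 were Aurka, Bub1, Cdc20, Cdca3, Cenpa, Cenpf, Kif23, Nusap1, Racgap1 and Smc2. In 4 of them (Cdca3, Cenpa, Cenpf and Smc2) WT 3 and IRF4 KO 1 were lowest on another probe set, as on that of Cdca3 with 4.01, 3.64 and 3.08 in WT and 3.44, 3.75 and 3.84 in IRF4 KO. Over all 87 probe sets both arrays lay above the other 4 in 47 and below them in 7, and 0 of 87 passed in a limma fit on all probe sets of the table.

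**Figure D2:**
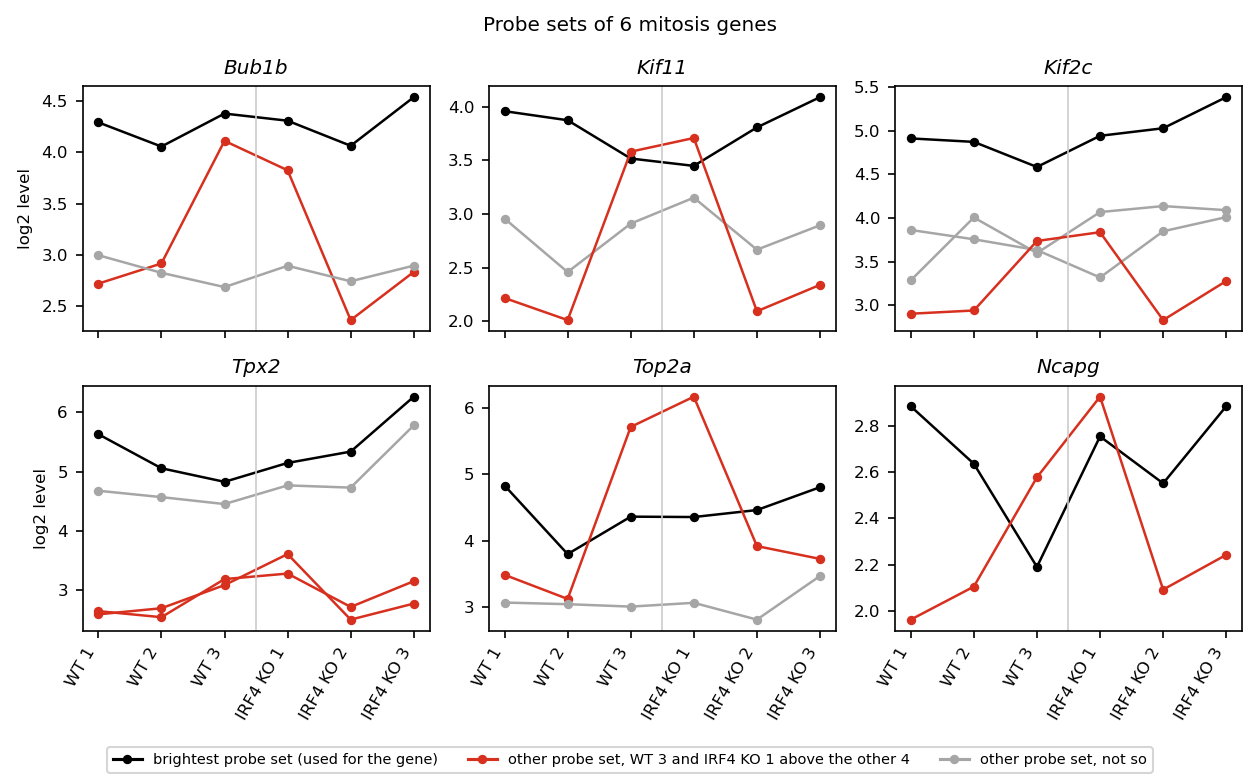
Log2 level on each array (points joined by lines) for every probe set of the 6 mitosis genes whose brightest probe set (black) did not show the pattern while another (red) did; grey marks the remaining probe sets. The red Top2a line reaches 5.71 in WT 3 and 6.17 in IRF4 KO 1 and lies between 3.12 and 3.92 elsewhere.

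The genotypes were also set against each other within each set of arrays. Between IRF4 KO 1 and WT 3 the median difference of the 40 genes was 0.15, with 25 genes higher in IRF4 KO 1, and the median of all genes was 0.0019. Over the other 4 arrays, IRF4 KO 2 and 3 minus WT 1 and 2, the median was 0.04 and 24 genes were higher. In these 4 arrays 4 of 40 genes were higher in IRF4 KO without overlap (Pbk, Cdca3, Kif2c and Anln), against 14.1% of all genes. A further 4 were lower without overlap (Mad2l1, Cenpa, Ndc80 and Smc2), against 15.7% of all genes. In a limma fit that blocked on low or high spike-in signal, 0 of 40 genes passed, and the smallest adjusted p was 0.995. Single arrays moved the balance: 36 genes were higher in IRF4 KO without WT 3, 9 without IRF4 KO 1 and 11 without WT 2, against 25 with all arrays.

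**Figure D3:**
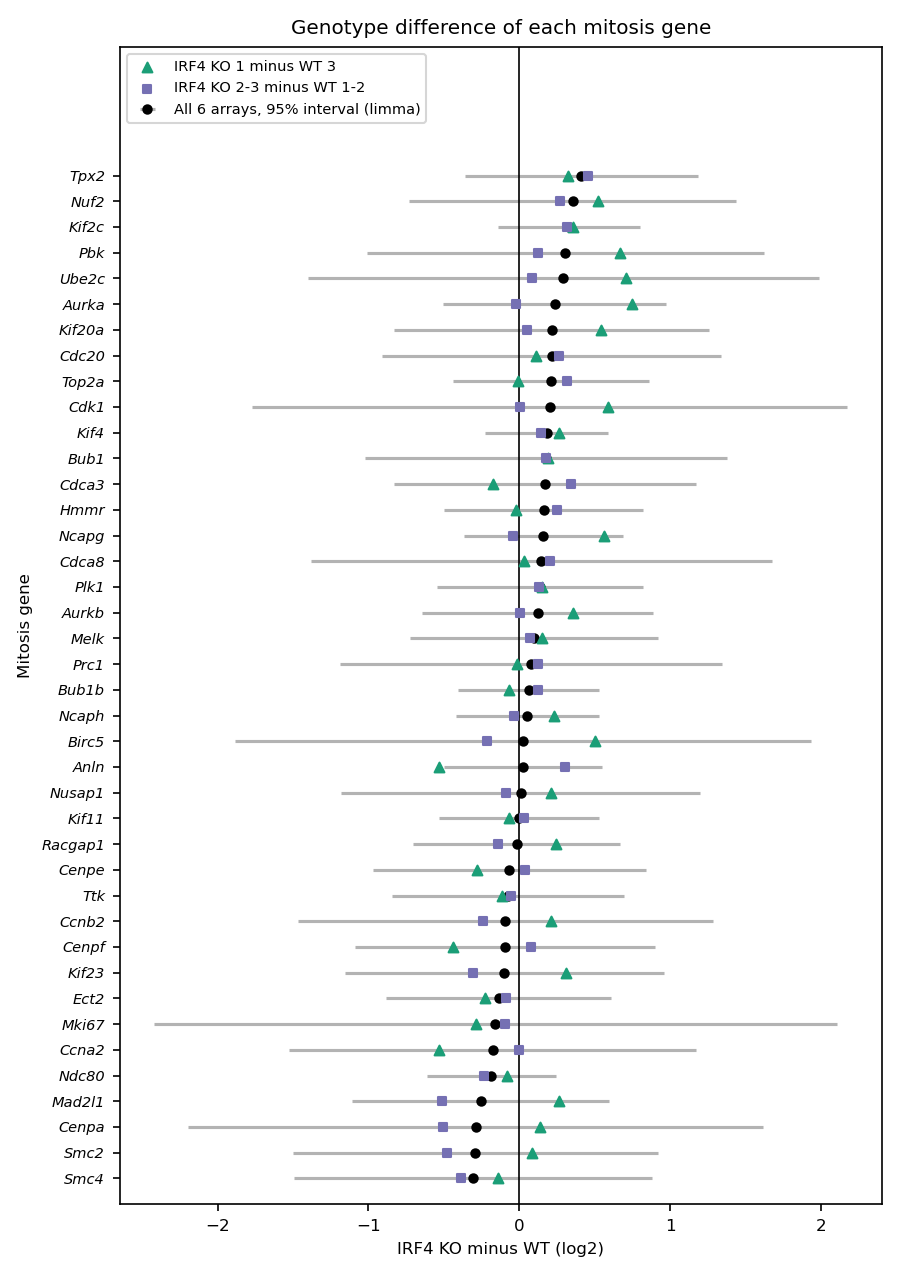
Difference IRF4 KO minus WT in log2 units (horizontal axis) for each of the 40 mitosis genes (vertical axis): black points give all 6 arrays with their 95% intervals from limma, triangles IRF4 KO 1 minus WT 3, and squares IRF4 KO 2-3 minus WT 1-2. Every interval includes 0, and the points lie between -0.31 (Smc4) and 0.41 (Tpx2).

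Other mitosis genes, from lists made alongside the members, were compared in the same way. Of 79 such genes 0 passed in either direction, IRF4 KO had the higher mean in 43, and the median difference was 0.05. Both WT 3 and IRF4 KO 1 were above the other 4 arrays in 29 of the 79 and below them in 10, against 17.4% and 19.8% of all genes. Their median excess over the 79 genes was 0.27, against -0.03 over all genes. Among 40 further spindle, kinetochore and cytokinesis genes both arrays were above the other 4 in 17 and below them in 4. Cep55, an abscission protein gene chosen after its values were seen, had the largest excess of this list, 2.52. Cep55 was at 2.14, 2.11 and 4.81 in WT and at 4.74, 2.13 and 2.64 in IRF4 KO. In this list Gtse1, a microtubule-binding protein gene, had the smallest p, with a difference of 0.62 (unadjusted p = 0.0363, limma adjusted p = 0.999), and Cenpn, a centromere protein gene, differed by 0.33.

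Of 27 further genes of mitotic entry and exit, 9 were highest in WT 3 and IRF4 KO 1 and 3 were lowest there, and 0 passed between the genotypes. The lowest value of the pair minus the other 4 arrays was -1.47, in Pttg1, also chosen after its values were seen. The 2 with the smallest p were Anapc13, a subunit of the anaphase promoting complex (-0.46), and Cks1b, a CDK-binding protein gene (-0.46). Of 12 transcription regulators of mitosis genes, 3 were highest in WT 3 and IRF4 KO 1 and 3 were lowest there (17.4% and 19.8% of all genes), and 0 passed. The NF-Y subunit gene Nfyc differed by -0.36 between the genotypes and Lin37, of the MuvB complexes, by -0.33. Foxm1, the activator of G2 and M phase genes, was at 6.04, 5.74 and 5.55 in WT and at 5.55, 5.94 and 6.70 in IRF4 KO, with WT 3 and IRF4 KO 1 lowest. Mybl2, which joins it at these promoters, was also lowest in those arrays, at 2.69 and 2.64 against 2.87 to 3.45. Foxm1 and Mybl2 were named for their role after their values were seen, each from its brightest probe set.

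In 23 measured DNA replication genes, the pathway closest to mitosis, 8 were highest in WT 3 and IRF4 KO 1 (17.4% of all genes). Another 2, Mcm10 and Cdc45, were lowest there (19.8% of all genes). The median excess of the pair was 0.35, against -0.03 over all genes. The ribonucleotide reductase gene Rrm2, chosen after its values were seen, had the largest excess of this list. Rrm2 was at 3.74, 3.65 and 5.69 in WT and at 6.41, 3.28 and 3.12 in IRF4 KO. Pcna, the replication clamp, had a genotype difference of 1.09 (limma adjusted p = 0.252) and Pole, a replicative polymerase, one of 0.47. The unadjusted p of Pcna was 0.000222, and the smallest among the 40 mitosis genes was 0.146.

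Markers of other cell types moved with the same arrays. The 10 macrophage markers averaged 7.77 in WT 3 and 8.87 in IRF4 KO 1, against 4.60 to 5.51 in the other 4, and 9 of 10 were highest in the pair. Csf1r, the receptor of the macrophage growth factor, was at 9.72 and 10.30 there and between 5.40 and 6.99 elsewhere. The 10 cartilage markers averaged 7.36 and 7.41, against 3.59 to 4.07, with 9 of 10 highest in the pair, and 6 adventitial fibroblast markers averaged 8.87 and 9.43, against 7.18 to 7.47. Of 8 endothelial markers 3 were highest in the pair, at list means of 6.79 and 7.01 against 6.05 to 6.61. The part of these cells in the mitosis gene levels was not tested.

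Smooth muscle markers were highest in the pair in 0 of 7 cases, with a list mean of 10.06 in WT 3 and 10.46 in IRF4 KO 1 against 10.19 to 10.83 elsewhere. Markers of red blood cell precursors were highest in the pair in 0 of 5 cases, fat cell markers in 0 of 5 and skeletal muscle markers in 0 of 6. Marrow and neutrophil markers were so in 2 of 8 cases, with a list mean of 4.44 in WT 3 and 3.64 in IRF4 KO 1 against 3.33 to 3.70 elsewhere. In WT 3, 3 of the 8 were above the median gene level. Over the 8 markers the mean of the pair minus that of the other 4 arrays ran from -0.47 to 2.59. Mpo and Elane, of immature marrow granulocytes, were at most 3.32 and 4.42 on any array and do not stand for the whole list. T cell and B cell markers were highest in the pair in 1 of 7 and 1 of 5 cases. The median level of the 40 mitosis genes was 4.59 in WT 3 and 4.85 in IRF4 KO 1, against 3.53 to 3.95 in the other 4. Their mean level was 4.78 and 4.91 in the pair. It differed by 0.05 between the genotypes, with means of 4.16 ± 0.55 and 4.22 ± 0.61 (SD, n = 3).

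**Figure D4:**
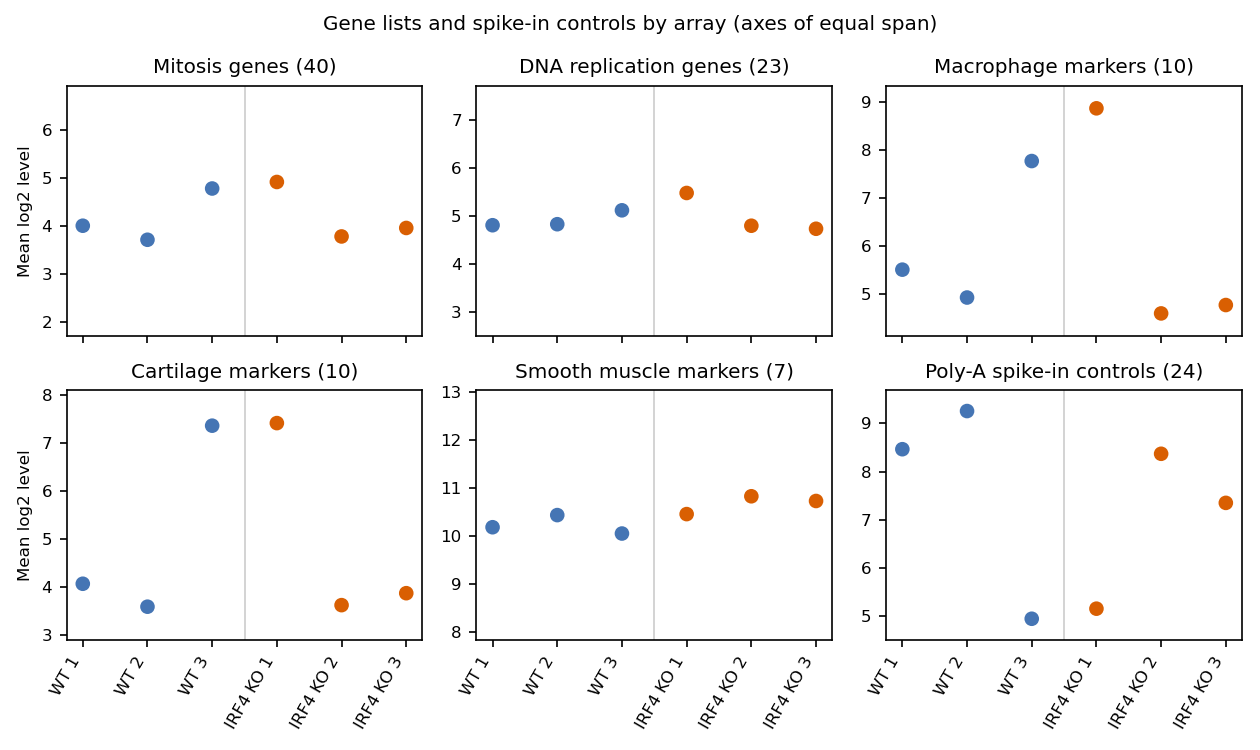
Mean log2 level (vertical axis, the same span of units in each panel) on the 6 arrays for 5 gene lists and the poly-A spike-in controls, with WT in blue and IRF4 KO in orange. The mitosis genes stand at 4.78 and 4.91 in WT 3 and IRF4 KO 1, where macrophage and cartilage markers are also highest and the spike-in controls are lowest at 4.93 and 5.14.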

How the data were processed

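The data are 6 Affymetrix arrays, hybridised with biotin-labelled cRNA from 400 ng of total RNA each. The deposited values are log2 intensities per probe set, which the authors made with Affymetrix Expression Console and RMA, per the submitters' processing notes, with no version or setting stated there. RMA pulls dim probe sets towards background, so changes of weak genes are understated, and 32 of the 40 measured members lie below the median gene level. The number of arrays limits the precision.

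Of 45101 probe sets, 34958 had 1 gene symbol in the platform annotation, 932 had several and 9211 had none. Through the Entrez number, 34754 were found in RefSeq (GRCm38.p6), which changed 0 symbols. Each of 18194 genes took its brightest probe set. IRF4 KO was compared with WT in limma 3.58.1 (R 4.3.3, lmFit and eBayes, two-sided, no covariate), adjusted over all genes, and called at an adjusted p under 0.05. The fit was tested on simulated data with independent noise for each gene and array. Those data held no shift shared between genes, unlike the arrays used here, so they do not cover that feature. The members and lists were chosen with earlier results of these data known, so no p was adjusted over them alone and no set was tested.

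Members given with all 6 values were the brightest of each role group, Mki67, Top2a, the 3 with the smallest p in each direction and those with the widest and narrowest range; others given so were chosen after their values were seen. Of each other list the 2 genes with the smallest p are named. Promoters were chosen as the 4 members with the brightest probe sets and a TTTGAA or TTTAAA match in the window, and transcribed sequence was not printed. Alternatives changed the gene value (probe-set mean, every probe set, dim genes removed), the scaling (quantile normalization, subtraction of array medians), the model (robust trend, array weights, blocks for replicate number or spike-in signal), the threshold, or the arrays (each left out in turn, or WT 3 with IRF4 KO 1). The alternatives for the pattern across arrays, and the difference between IRF4 KO 1 and WT 3 alone, were added after seeing the data.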

Additional observations from a re-analysis of the deposited data

How the results depend on the processing

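No mitosis gene passed in any of the limma fits run, the smallest adjusted p being 0.0940 with array weights. At an unadjusted p under 0.05 there were 5 mitosis genes with array weights and 1 without IRF4 KO 1, against 0 with all arrays weighted equally. Over all genes 0 passed, except 68 with array weights and 5 without WT 3 and IRF4 KO 1, and 271 at an unadjusted p under 0.05. The count of mitosis genes higher in IRF4 KO was 25, and became 15 with array weights, 4 of 8 with dim genes left out, and 9 (without IRF4 KO 1) to 36 (without WT 3) on leaving out 1 array, with 11 without WT 2. The median difference of 0.07 ran from -0.28 to 0.34 on leaving out 1 array, and was -0.07 with dim genes left out and -0.05 with array weights. The median difference of all genes was -0.0015, and -0.07 with dim genes left out. The count of genes highest in WT 3 and IRF4 KO 1 was 29, and 5 of 8 with dim genes left out. The median excess of that pair over all 40 genes was 1.11. It became 0.64 with the mean of all probe sets, and 1.38 over the 8 genes kept with dim genes left out. Of 13 genes followed singly, 4 (Ndc80, Kif2c, Kif4 and Tpx2) kept the sign of their difference throughout. Ccna2 turned to 0.042 with the mean of all probe sets and to 0.0008 without WT 3 and IRF4 KO 1, Cenpf to 0.078 in the latter fit, Anln to -0.10 with the mean of all probe sets, and Cdc20 to -0.16 with array weights. On leaving out 1 array the differences ran from -0.68 to 0.45 for Ccna2, -0.68 to 0.079 for Mad2l1, -0.21 to 0.69 for Cdc20, -0.45 to 0.79 for Cdca8 and -0.39 to 0.38 for Cenpf. They ran from -1.11 to 0.86 for Mki67, -0.056 to 0.46 for Top2a, -0.82 to 0.12 for Smc4 and -0.091 to 0.21 for Anln. The causes were not tested. The deviations of same-numbered arrays from their group means correlated at -0.52, 0.37 and -0.62, and WT 3 correlated best with IRF4 KO 1 (0.68). Because WT 3 and IRF4 KO 1 stood apart in each group, these values cannot decide whether same-numbered arrays were paired. With the replicate block 0 genes passed, as without it, and the median difference of the mitosis genes was 0.07. Most mitosis genes are dim, which limits how well their changes are measured.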
